A study of Homo sapiens with 3 samples.

Results

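The genes described here are the 4 MiT/TFE transcription factor genes MITF, TFEB, TFE3 and TFEC, the folliculin gene FLCN with its partner genes FNIP1 and FNIP2, and the Rag GTPase genes RRAGC and RRAGD. They were chosen by symbol, and all 9 were found among the 20344 genes listed. Messenger RNA was sequenced from cultures of A375, a human melanoma line with mutant BRAF, and of A375-VR, a name that the labels do not spell out in a series whose title concerns vemurafenib resistance. The libraries analysed, 2 in number, carry the titles "A375, Prop" for one and "A375-VR, Prop" for the other, and are called the A375 library and the A375-VR library below. A further sample, with the title A375-VR, DMSO, is not analysed here. The extraction protocol of every sample names A375-VR cells that were given either DMSO, a solvent, or 20 µM of the beta-adrenergic blocker propranolol, with RNA taken after 24 h. Title and protocol therefore disagree on the A375 library. Both titles carry Prop, read here as propranolol, so by title the drug was shared and no DMSO library was compared. Cell line, culture and library preparation cannot be told apart as sources of what differed. As title and protocol disagree, a difference in drug cannot be set aside either. No condition was tested, for want of replicates, and intervals given below are 95% intervals for counting error alone.

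MiT/TFE proteins are basic helix-loop-helix leucine zipper factors that bind DNA as dimers with one another, at the E-box CACGTG and at the related M-box TCATGTG. MITF is the master regulator of the melanocyte lineage, while TFEB and TFE3 switch on genes of lysosomes and autophagy. In fed cells the RagC and RagD GTPases, made from RRAGC and RRAGD, bring TFEB and TFE3 to the lysosome surface, where the kinase mTORC1 phosphorylates them and keeps them out of the nucleus. Folliculin, held by FNIP1 or FNIP2, is the GTPase-activating protein that puts RagC and RagD into the state needed for this. Much of this control acts on the place and phosphorylation of proteins, which RNA levels do not measure.

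MITF was lower in the A375-VR library, and the folliculin and Rag genes were higher there. Values are FPKM, which count reads or read pairs for each kilobase of a gene, scaled by the depth of the library, and folds are plain ratios of FPKM, A375-VR over A375. The library totals worked out from the values were 17811339 and 16438482, from which read numbers per gene were recovered. A filter that asked for FPKM 1 or more in either library was passed by 10761 genes, with medians of 605 and 621 reads, and by 7 of the 9 members. TFEB and TFEC did not pass, and FLCN passed only through the library in which it was higher. Of the 7, none was 2-fold apart on the log2(FPKM + 1) scale, where 3.14% of the 10761 genes were higher by 2-fold or more and 0.613% lower. The fold interval lay above 1 for 6 members and below 1 for 1, MITF, against 43.6% and 26.4% of all genes past the filter. After division by the median fold of those genes, 1.08, it lay above 1 for 5 members (33.7% of all genes) and below 1 for 1 (34.8%), since TFE3 no longer counted. At a plain fold of 1.5 or more, 4 members were higher (17.8% of all genes), and 1 was lower by as much (6.5%). FLCN, past the filter only through the A375-VR library, is among the higher members in each of these counts of intervals and folds. The median difference of the 7 was 0.46 on the log2 scale (0.81 with a pseudocount of 0.1), which is the value of FLCN, against 0.10 over all genes past the filter, 60.3% of which were higher. RNA was taken from whole cultures, so fewer cells of a kind and less RNA per cell cannot be told apart.

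**Figure D1:**
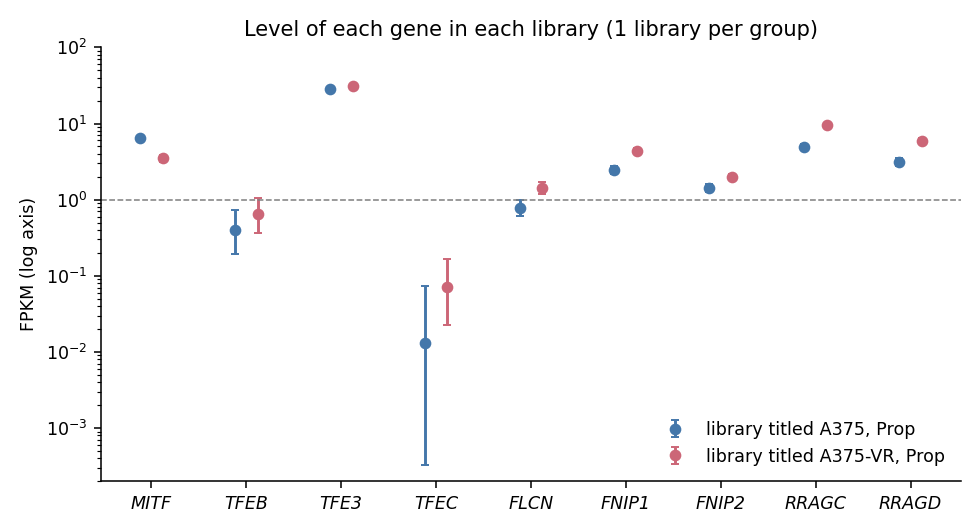
FPKM of the 9 genes in each library (log axis), with exact 95% Poisson intervals of the recovered reads; the dashed line is the filter at FPKM 1. TFE3 was the highest in both libraries, MITF was lower in the A375-VR library, and TFEB and TFEC lay under the line in both.

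TFE3, which encodes a lysosomal and autophagy regulator, was the most abundant member. TFE3 (Entrez 7030) was at 28.0 FPKM in A375 and 31.3 FPKM in A375-VR, from 2134 and 2206 reads, a fold of 1.12 (1.05 to 1.19). Its level was above that of 91.2% and 92.2% of all listed genes. The libraries differed little in TFE3: with the median fold of all genes divided out, its fold was 1.03 (0.974 to 1.10), an interval that holds 1. The gene lies on chromosome X of GRCh37, from 48886237 to 48900936 on the minus strand in the GENCODE 44 models.

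MITF was the only member lower in the A375-VR library. MITF (Entrez 4286), on the plus strand of chromosome 3 at 69788607 to 70017487, was at 6.47 FPKM in A375 and 3.47 FPKM in A375-VR, from 827 and 410 reads. The fold was 0.537 (0.476 to 0.605), or 0.496 (0.440 to 0.559) with the median fold of all genes divided out. The log2(FPKM + 1) difference was -0.74, and 1.85% of genes past the filter had a lower difference. Its level was above that of 71.9% of listed genes in the A375 library and of 60.6% in the A375-VR library. The files give 1 value for the whole gene, so the melanocyte form of MITF, made from the most downstream start, was not separated from the others.

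TFEB and TFEC were near the limit of detection. TFEB (Entrez 7942), the best known regulator of lysosome genes, had 0.398 and 0.646 FPKM, resting on 10 and 15 reads, with a fold of 1.63 (0.683 to 4.05) that was not detectably different from 1 at this depth. The length recovered for TFEB, 1412 bp, is far under the 6722 bp of its exons in GENCODE 44, so its reads can be a multiple of these. It lies on the minus strand of chromosome 6 at 41651716 to 41703997, where exons of a long noncoding gene on the opposite strand share 115 bp with it. TFEC (Entrez 22797), a member of the family known mainly from macrophages, lies on chromosome 7 at 115575202 to 115799950 and had 0.0130 and 0.0704 FPKM. This rests on 1 and 5 recovered reads, with a fold of 5.42 (0.606 to 256). Doubling the recovered length gives exactly the reference length of 8644 bp, and with 2 and 10 reads the interval becomes 1.15 to 50.9, so the reading of TFEC depends on which length the authors used.

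The make-up of the family differed between the libraries, and its sum was close. The 4 genes summed to 34.9 FPKM for A375 and 35.5 FPKM for A375-VR. TFE3 made up 80.3% of that sum in A375 and 88.2% in A375-VR, MITF 18.6% and 9.78%, TFEB 1.14% and 1.82%, and TFEC 0.0373% and 0.198%. A ratio of 2 genes within a library does not depend on how the library was scaled. MITF stood at 0.231 of TFE3 in A375 and 0.111 in A375-VR, a change of 0.480 (0.419 to 0.549). TFEB stood at 0.0142 and 0.0206 of TFE3, a change of 1.45 (0.608 to 3.62), which was not detectable at this depth.

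Folliculin and its partners were all higher in the A375-VR library. FLCN (Entrez 201163), the tumour suppressor lost in Birt-Hogg-Dubé syndrome, had 0.780 and 1.44 FPKM, from 68 and 116 recovered reads, a fold of 1.85 (1.36 to 2.53). Doubling its recovered length gives the reference length of 9786 bp, and with 136 and 232 reads the interval narrows to 1.49 to 2.30. It lies on the minus strand of chromosome 17 at 17115526 to 17140502. FNIP1 (Entrez 96459), on the minus strand of chromosome 5 at 130977407 to 131132710, had 2.45 and 4.41 FPKM, from 347 and 576 reads, a fold of 1.80 (1.57 to 2.06). FNIP2 (Entrez 57600), its paralog on the plus strand of chromosome 4 at 159690178 to 159829202, had 1.41 and 1.99 FPKM, from 273 and 355 reads, a fold of 1.41 (1.20 to 1.66). In a ratio chosen after the data were seen, the partners differed by unequal amounts, narrowly beyond counting error. FNIP1 stood at 1.74 times FNIP2 in A375 and 2.22 times in A375-VR, a change of 1.28 (1.03 to 1.58). FLCN stood at 0.318 and 0.327 of FNIP1, a change of 1.03 (0.732 to 1.45). Read-through genes on the same strand share 1161 bp of exon with FLCN and 281 bp with FNIP1 in GENCODE 44, and reads there cannot be assigned from the files.

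RRAGC and RRAGD, whose products are the folliculin substrates, had the largest positive log2(FPKM + 1) differences of the 9 genes. By plain fold TFEC was larger, at 5.42 from 1 and 5 reads. The fold intervals of RRAGC and RRAGD overlap those of FLCN and FNIP1. RRAGC (Entrez 64121), on the minus strand of chromosome 1 at 39303870 to 39325444, had 4.87 and 9.58 FPKM, from 448 and 814 reads, a fold of 1.97 (1.75 to 2.21). Its log2 difference of 0.85 was above that of 95.2% of genes past the filter. RRAGD (Entrez 58528), on the minus strand of chromosome 6 at 90074335 to 90121992, had 3.09 and 5.84 FPKM, from 279 and 487 reads, a fold of 1.89 (1.63 to 2.20). Its difference of 0.74 was above that of 93.0% of genes. Their proportion was nearly the same in both libraries, with RRAGD at 0.634 and 0.609 of RRAGC, a change of 0.961 (0.794 to 1.16). A long noncoding gene on the same strand shares 1183 bp of exon with RRAGC.

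**Figure D2:**
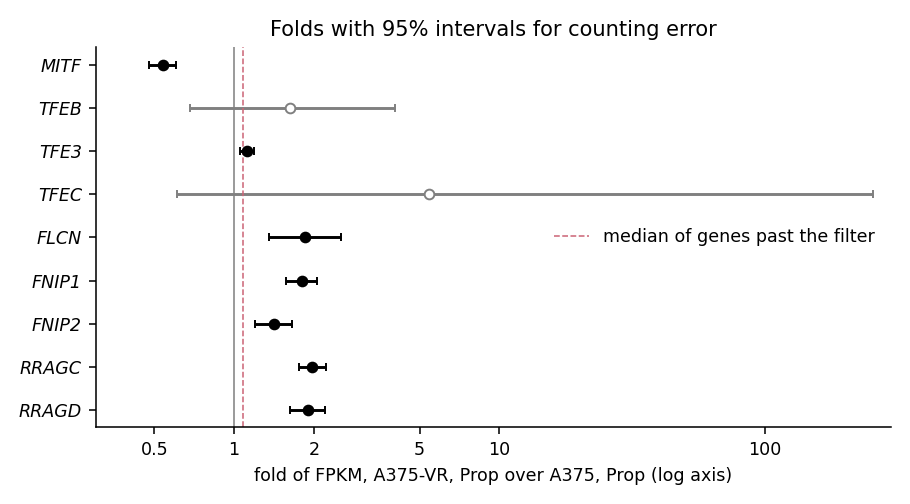
Fold of FPKM, A375-VR library over A375 library, for each gene (log axis) with its 95% interval for counting error; open points are the genes under the filter. MITF, at 0.537, lies left of 1, the folliculin and Rag genes lie between 1.41 and 1.97, and the intervals of TFEB and TFEC hold 1.

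Set against TFE3, which has the most reads of the members, all 5 folliculin and Rag genes stood higher in A375-VR, as their folds imply. Of 12 ratios within libraries that were computed, the change was 1.76 (1.54 to 2.01) for RRAGC, 1.69 (1.44 to 1.99) for RRAGD, 1.65 (1.21 to 2.27) for FLCN, 1.61 (1.38 to 1.86) for FNIP1 and 1.26 (1.06 to 1.49) for FNIP2. Each ratio is the fold given above divided by the TFE3 fold of 1.12, so it restates that fold. The ratios were chosen after the data were seen, and the share of all genes that stood higher against TFE3 was not computed. On the log2(FPKM + 1) scale, 56.8% of genes past the filter had a lower difference than TFE3. The ratios share the reads of TFE3 and are not independent of one another.

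The order of the levels differed between the libraries only in the place of MITF. In the A375 library it ran TFE3, MITF, RRAGC, RRAGD, FNIP1, FNIP2, FLCN, TFEB and TFEC, and MITF was 1.33 times RRAGC (1.18 to 1.49). In the A375-VR library MITF came after FNIP1, which was 1.27 times MITF (1.12 to 1.45). Every neighbour in both orders was apart beyond counting error, most narrowly FLCN and TFEB in the A375 library, at a ratio of 1.96 (1.00 to 4.28). FPKM is per length, so these levels can be set side by side as far as the authors' gene lengths hold.

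**Figure D3:**
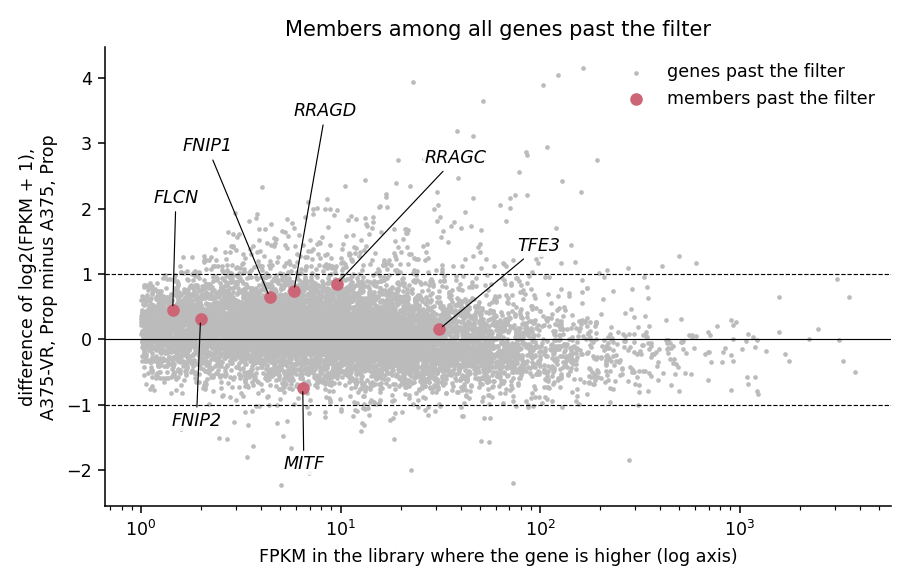
Difference of log2(FPKM + 1), A375-VR library minus A375 library, against the FPKM in the library where the gene is higher (log axis), for the 10761 genes past the filter (grey) and the 7 members among them; dashed lines mark 2-fold. MITF lies at -0.74 and RRAGC at 0.85, and no member is past either dashed line.

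Sequences around the transcript starts were searched for the motifs that MiT/TFE dimers bind. RefSeq promoters on GRCh38.p14, from 250 bases before to 50 after a start, matched 8 of the 9 genes by symbol, with 14 starts in all; RRAGD was not matched. The E-box CACGTG, which reads the same on both strands, was in 2 of these 14, FNIP1 and RRAGC, and in 7.26% of all 35116 promoters. All 3 of these E-boxes were also matches to the longer TCACGTG, which overlaps CACGTG and occurred on either strand in 3.71% of promoters. The M-box TCATGTG, on either strand, was in 1 of the 14, the downstream start of FNIP2, and in 2.92% of all. The 3 promoters with a match are shown, up to the start, with the match in capitals, 5′ to 3′ on the strand of the gene. The FNIP1 promoter (chr5:131797018-131797267, minus strand) holds a pair of E-boxes and the RRAGC promoter (chr1:38859773-38860022, minus strand) a single one; the FNIP2 promoter is chr4:158805589-158805838 (plus strand).
FNIP1: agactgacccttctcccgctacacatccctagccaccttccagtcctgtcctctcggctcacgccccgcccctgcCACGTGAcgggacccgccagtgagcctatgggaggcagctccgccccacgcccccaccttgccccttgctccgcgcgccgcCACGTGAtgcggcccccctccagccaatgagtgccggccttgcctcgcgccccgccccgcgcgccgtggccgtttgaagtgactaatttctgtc
RRAGC: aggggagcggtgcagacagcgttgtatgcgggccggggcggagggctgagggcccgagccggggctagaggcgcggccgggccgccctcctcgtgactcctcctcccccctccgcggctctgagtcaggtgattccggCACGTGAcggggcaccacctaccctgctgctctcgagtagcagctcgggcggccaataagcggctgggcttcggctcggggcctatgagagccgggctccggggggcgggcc
FNIP2, downstream start: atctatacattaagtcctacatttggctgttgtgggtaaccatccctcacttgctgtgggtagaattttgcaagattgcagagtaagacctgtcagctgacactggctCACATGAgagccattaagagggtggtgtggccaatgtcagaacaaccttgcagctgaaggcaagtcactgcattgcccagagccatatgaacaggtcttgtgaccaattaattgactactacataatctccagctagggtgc
The capitals in FNIP1 and RRAGC mark the E-box with the base that follows it, and those in FNIP2 the M-box read from the other strand. The E-boxes begin at bases -175 and -94 in FNIP1 and -112 in RRAGC, and the M-box at -142 in FNIP2. The promoters of FLCN and MITF, genes that also differed between the libraries, held no E-box or M-box. The most downstream MITF start (chr3:69936342-69936591, plus strand) was searched after the values were seen for TGACGT, the core of the element bound by the cAMP-responsive factor CREB, which was in 7.98% of all promoters.
MITF, most downstream start: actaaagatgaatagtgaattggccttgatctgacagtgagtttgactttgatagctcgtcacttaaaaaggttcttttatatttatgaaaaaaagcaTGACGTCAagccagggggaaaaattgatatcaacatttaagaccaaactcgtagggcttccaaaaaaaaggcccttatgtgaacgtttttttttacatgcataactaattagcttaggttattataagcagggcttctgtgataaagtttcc
The capitals mark a match on each strand, which overlap and begin at bases -152 and -150. No other start of the 14 held this core. A match is a stretch of letters, and binding was not measured. A link between a match and the RNA levels was not tested.

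**Figure D4:**
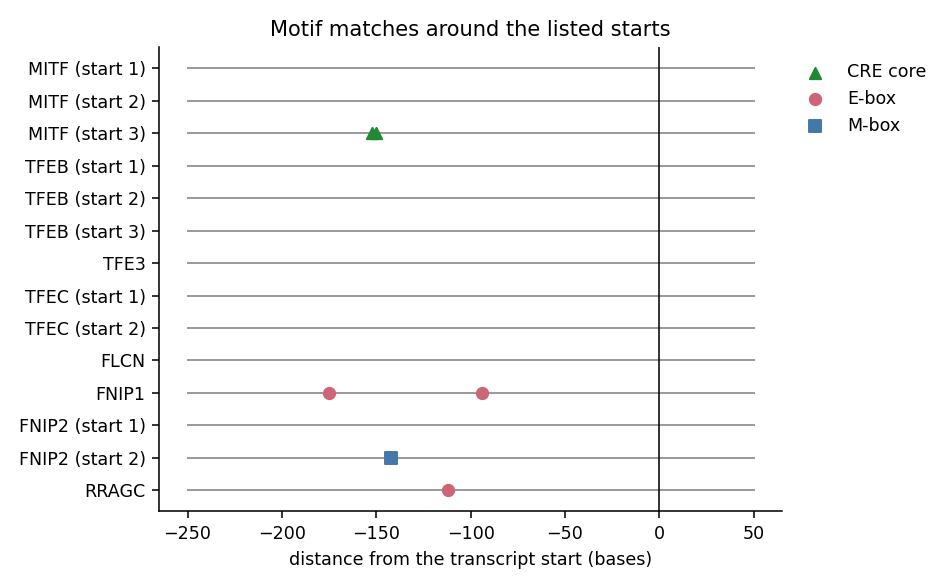
Positions of motif matches, in bases from the transcript start, along the 14 listed promoters (grey lines). E-boxes are seen in FNIP1 and RRAGC, an M-box in 1 of the FNIP2 promoters, and the CRE core, TGACGT, in 1 of the MITF promoters, where the matches on both strands overlap.

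The other Rag and Ragulator genes had smaller folds than RRAGC and RRAGD. The list of Rag GTPases and Ragulator, the scaffold that holds the Rags on the lysosome, had all 8 genes past the filter, of which 7 were higher and 1 was lower for A375-VR (60.3% of all genes past the filter were higher). The median difference was 0.27, or 0.16 with median centring, against 0.10 and 0 over all genes. RRAGA, the abundant partner of RagC and RagD, had 97.6 and 134 FPKM, and its fold was 1.37 (1.30 to 1.44). The Ragulator genes LAMTOR2 and LAMTOR5 had folds of 1.23 (1.11 to 1.36) and 1.24 (1.10 to 1.39). RRAGB, named after its values were seen, was the lower one, with 3.44 and 3.37 FPKM and an interval of its fold from 0.781 to 1.23.

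Regulators further upstream went both ways. In the list of GATOR and KICSTOR, complexes that switch the RagA and RagB GTPases, 10 of 12 genes passed the filter. Of these, 5 were higher and 5 lower, where 60.3% of all genes past the filter were higher. The median was 0.01 (-0.09 with median centring). SEH1L, a GATOR subunit also found in the nuclear pore, had a fold of 0.595 (0.549 to 0.645), ITFG2 of KICSTOR 0.591 (0.492 to 0.708), and the GATOR subunit WDR59 1.48 (1.34 to 1.63). Of 7 amino acid sensor genes 4 passed, 3 of them higher, with a median of 0.26 (0.16 with median centring, 0.12 without the filter). BMT2, the sensor of S-adenosylmethionine, had 3.01 and 6.15 FPKM, a fold of 2.04 (1.61 to 2.59), while the sestrin genes SESN1 and SESN2 had folds of 1.47 (1.27 to 1.71) and 0.946 (0.840 to 1.06).

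Genes of mTORC1 and its inhibitors had a median difference of 0.18 (0.08 with median centring). Of these, 8 of 9 were higher, against 60.3% of all genes past the filter. The largest differences were in inhibitors. DEPTOR, which binds the kinase, had 1.07 and 2.23 FPKM from 25 and 48 reads, a fold of 2.08 (1.26 to 3.52). TSC1 and TBC1D7, subunits of the complex that turns off RHEB, had folds of 1.94 (1.72 to 2.20) and 1.37 (1.17 to 1.60). Among AMPK genes and partners of folliculin the median was also 0.18 (0.09 with median centring), with 10 of 11 higher. GABARAPL1, an autophagosome protein of a family that folliculin and FNIP proteins bind, was at 6.88 and 12.8 FPKM, with a fold of 1.86 (1.53 to 2.26). C9orf72, which has a folliculin-like partner in SMCR8, had a fold of 1.39 (1.19 to 1.62), and the AMPK subunit gene PRKAG2 of 0.658 (0.581 to 0.744).

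Genes that act on where TFEB and TFE3 sit in the cell had a median of 0.01 (-0.10 with median centring). Of 15 genes, 9 were higher and 6 lower, where 60.3% of all genes past the filter were higher. The list holds adaptors, kinases and other genes, so its median has no single direction for TFEB or TFE3. YWHAH, 1 of the genes for the phosphoserine-binding adaptors that hold these factors in the cytoplasm, had 55.5 and 30.3 FPKM, a fold of 0.546 (0.509 to 0.585). Another adaptor gene, SFN, rested on 19 and 12 reads, with a fold of 0.684 (0.303 to 1.48). The other adaptor genes of the list, named after their values were seen, went both ways. YWHAZ had a fold of 1.22 (1.19 to 1.24) and YWHAG of 1.01 (0.967 to 1.05). YWHAE had a fold of 0.736 (0.719 to 0.753), YWHAQ of 0.792 (0.769 to 0.815) and YWHAB of 0.908 (0.887 to 0.930). The kinase gene GSK3B had a fold of 1.43 (1.25 to 1.63).

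**Figure D5:**
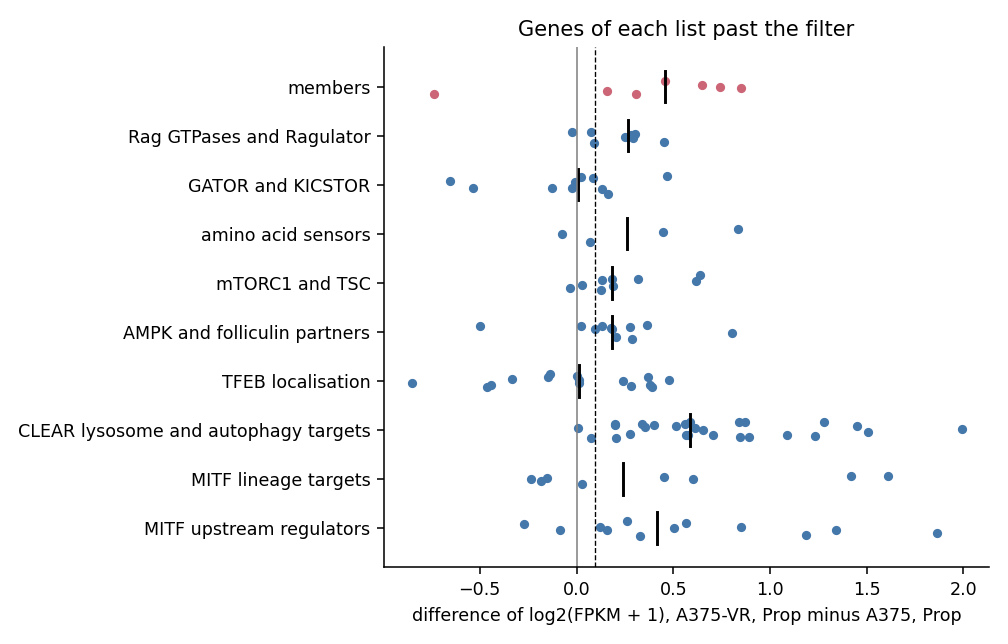
Difference of log2(FPKM + 1), A375-VR library minus A375 library, for the members and each gene of the 9 lists past the filter; black bars are medians and the dashed line is the median of all genes past the filter, 0.10. The medians are 0.59 for the CLEAR targets, 0.01 for the GATOR and TFEB localisation lists (below 0 with median centring) and 0.46 for the members.

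Known targets of the factors made up a pair of lists. Of 28 lysosome and autophagy genes with CLEAR elements, the E-box type that TFEB and TFE3 bind, 27 passed the filter. All 27 had a higher value in A375-VR, where 60.3% of all genes past the filter were higher. The fold interval lay above 1 for 26 (43.6% of all genes), and 6 were at least 2-fold higher (3.14%). The median was 0.59, or 0.48 with median centring. The list, like the others, was chosen with earlier results of these data known. WIPI1, which acts in autophagosome formation, had 1.35 and 8.35 FPKM, the sialidase gene NEU1 5.97 and 18.8, and SQSTM1, an autophagy receptor, 51.3 and 142. In the MITF lineage list, 8 of 24 genes passed, 5 higher and 3 lower (60.3% of all genes past the filter were higher). Of the 8, 2 were at least 2-fold higher (3.14% of all genes). Their fold interval lay above 1 for 4 (43.6% of all genes) and below 1 for 1 (26.4%). The gene with its interval below 1 was DIAPH1, at a fold of 0.846 (0.814 to 0.878). The median of the list was 0.24, but 0.13 with median centring and 0.09 without the filter. ACP5, a lysosomal phosphatase, had 3.85 and 13.8 FPKM, a fold of 3.59 (3.06 to 4.23), GPNMB, a melanosome and lysosome glycoprotein, 17.8 and 49.1, a fold of 2.77 (2.57 to 2.99), and the ceramidase gene ASAH1 2.53 and 4.35, a fold of 1.72 (1.24 to 2.40). PPARGC1A, a mitochondrial coactivator named after its values were seen and under the filter, had 0.0775 and 0.862 FPKM, a fold of 11.1 (6.54 to 20.4). BCL2, likewise named after its values were seen and under the filter, went the other way. It had 0.678 and 0.476 FPKM, a fold of 0.702 (0.534 to 0.919).

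Upstream regulators of MITF were mostly higher in the library where MITF was lower. Of 13 genes 12 passed the filter, 10 higher and 2 lower (60.3% of all genes were higher), 3 of them at least 2-fold higher (3.14%), with a median of 0.42. FOXD3 and ZEB2, the latter named after its values were seen, passed only through the A375-VR library, where they were higher. BHLHE40, a repressor that can act on MITF, had 2.91 and 13.2 FPKM, a fold of 4.54 (3.89 to 5.33). SOX10, an activator of MITF in the neural crest lineage, had 65.3 and 149.6 FPKM. FOXD3, a neural crest factor that restrains MITF, had 0.431 and 2.62 FPKM, from 8 and 45 reads, a fold of 6.09 (2.84 to 15.0). The list holds activators and repressors, so its median has no single direction for MITF.

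Melanocytic identity rested on few markers. Of 7 melanocytic markers, SOX10 and S100B passed the filter, and the pigment genes were at or near 0: TYR was listed at 0 in both libraries, MLANA had 0 and 0.0592 FPKM, DCT 0.0149 and 0.0806, and PMEL 0.158 and 0.530. S100A1 was under the filter, with 0.5003 and 0.120 FPKM from 9 and 2 reads, lower in A375-VR, with a fold interval of 0.0253 to 1.16. The list summed to 69.7 and 163 FPKM, most of it SOX10. Of other cell types, 0 of 7 leukocyte markers passed, 5 of them at 0 in both libraries, with sums of 0.0595 and 1.61 FPKM. For fibroblasts 2 of 6 passed, with sums of 4.86 and 6.97. For keratinocytes 2 of 5 passed, with 47.8 and 59.5, most of it KRT10. Of 4 endothelial markers 1 passed, with sums of 0.568 and 2.07. That marker, KDR, passed only through the A375-VR library, with 0.394 and 1.84 FPKM. The part of these markers in the differences above was not tested.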

How the data were processed

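Messenger RNA of the 2 libraries was read from the values that the authors deposited as FPKM, 1 value per gene. Per the series design text, a stranded mRNA kit, paired reads of 150 bp and TopHat 1.3.3 on GRCh37 were used; the counting tool, annotation and use of strand were not given in the sources used here. Differences are log2(FPKM + 1), A375-VR minus A375, which understates the change of low genes. Library totals were taken as the commonest greatest common divisor of reads times length over 19997 pairs of genes (53.4% of pairs, next 12.7%). Reads are the smallest whole numbers that fit, so true counts can be multiples; 50.1% of the recovered lengths lay within 2% of GENCODE 44 exon lengths. They may stand for reads or for read pairs. Fold intervals are exact Clopper-Pearson, and those of ratios within libraries are exact conditional intervals (scipy 1.17.1). Named genes are all members and, per list, the 3 past the filter with the largest difference. The members and the 9 lists were chosen with earlier results of these data known. Recovery of library totals and read ratios, coverage of the fold intervals and the 2-fold rule were run on simulated libraries. The intervals there were built from the simulated counts and not from recovered reads. List medians, ratios within libraries, length multiples and the motif search were not simulated.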

Additional observations from a re-analysis of the deposited data

How the results depend on the processing

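No paired analysis was possible because there is 1 library per group. No replicate could be left out for the same reason. On the log2 scale with a pseudocount, no member was 2-fold apart under any of the 6 other settings, and none of the 9 differences changed sign under those that touch them. As a plain fold with median centring, MITF was at 0.496 (0.440 to 0.559), just past 2-fold lower. TFE3 moved beyond its counting interval, from 0.158 to 0.0474 with median centring and 0.0455 with the trimmed mean of log ratios, by construction of the scaling. MITF ran from -0.74 to -0.88, RRAGC from 0.75 to 0.96, FLCN from 0.39 to 0.81, TFEB from 0.19 to 0.58 and TFEC from 0.07 to 0.59. The median of the 7 members past the filter, 0.46, became 0.73 with a common sum and 0.81 with a pseudocount of 0.1. The count of genes at least 2-fold lower was 66, and became 101 with median centring, 101 with the trimmed mean, 104 with a common sum and 140 with a pseudocount of 0.1. The count of those at least 2-fold higher was 338, and became 624 with a common sum and 689 with a pseudocount of 0.1. The median of the MITF upstream regulators, 0.42, became 0.62 with a common sum and 0.66 with a pseudocount of 0.1. With median centring the medians fell from 0.27 to 0.16 for the Rag list, 0.26 to 0.16 for the sensors, 0.18 to 0.08 for mTORC1, 0.18 to 0.09 for AMPK and 0.24 to 0.13 for the MITF lineage list, and turned to -0.09 for GATOR and -0.10 for TFEB localisation; the trimmed mean gave nearly the same. The CLEAR list went from 0.59 to 0.48 and the MITF upstream list from 0.42 to 0.34 with median centring. Without the filter the sensors were at 0.12 and the MITF lineage list at 0.09. At FPKM 5 the sensors were at 0.07 and GATOR at -0.01. With a common sum or a pseudocount of 0.1, the pseudocount is smaller beside the values. The multiples of recovered length, the ratios within libraries and the CRE core were chosen after seeing the data. Depth limits TFEB and TFEC most.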
